A study of Rattus norvegicus with 3 samples.

Results

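Nuclear-encoded genes of the mitochondrial respiratory chain were followed in single-nucleus RNA libraries of rat brain. They were taken by name as all features whose symbol starts with Nduf, Uqcr, Cox4, Cox5, Cox6, Cox7, Cox8 or Atp5, together with Sdha to Sdhd. Of the 30560 features in the count tables, 94 (88 different symbols) fitted these names. At least 30 unique molecules (UMIs, each 1 counted RNA copy) over the libraries were found for 82 of them, 8 had 1 to 29 UMIs and 4 had none. Just inside this minimum lay Cox7a1 with 38 UMIs and a second feature called Ndufa10l1 (ENSRNOG00000062245) with 43. Just outside lay a second feature called Ndufs5 with 21 UMIs and Ndufv3-ps1, named as a pseudogene, with 19.

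The nuclei came from brains of female wild-type Crl:CD(SD) rats aged 12 weeks, an outbred stock. Rats had received saline, lipopolysaccharide (LPS, a bacterial cell wall component) at 5 mg/kg or poly(I:C) (a synthetic double-stranded RNA that mimics viral RNA) at 12 mg/kg into the peritoneum 7 hours earlier. Nuclei of 4 animals were pooled into 1 library per treatment, and the libraries hold no label for the animal. The comparisons ask which genes of the brain's cells differ after a bacterial or a viral stimulus outside the brain, and each sets 1 library against 1 library. There is therefore no replicate check and no test, and every bracket below is an exact 95% interval for counting error only. LPS and poly(I:C) were both set against the same saline library, so these comparisons are not independent of each other.

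The libraries held 25435 (saline), 11211 (LPS) and 15001 (poly(I:C)) barcodes with 35532360, 29763787 and 21340578 UMIs. Depth was unequal, with a median of 1165, 2436 and 1264 UMIs per barcode, and only 420, 550 and 247 barcode sequences were shared between pairs of libraries. Summed markers of other cells also differed between the libraries. The 12 endothelial markers found, of 15 listed, summed to 177, 122 and 123 counts per 1000000 UMIs (CPM) after saline, LPS and poly(I:C), and 10 of 11 mural markers to 112, 63.8 and 82.2. The 10 neutrophil markers, among them the acute phase gene Lcn2, summed to 1.72, 19.1 and 16.6 CPM and 3 of 6 erythroid markers to 160, 60.3 and 82.2. A sum over all barcodes cannot tell fewer cells of a type from less RNA per cell.

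The respiratory chain passes electrons from NADH and succinate to oxygen and uses the energy to pump protons across the inner mitochondrial membrane. Complex I takes electrons from NADH, complex II from succinate, complex III hands them to cytochrome c, complex IV to oxygen, and complex V, the ATP synthase, makes ATP as the protons flow back. Most subunits are encoded in the nucleus, and a core set is encoded in the mitochondrial genome. Neurons rely strongly on this pathway, and the factors NRF1, GABPA and YY1 are known to bind promoters of its nuclear genes.

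Promoter sequence was looked at first, because these genes are known for shared promoter motifs. RefSeq windows of 300 bases around the gene start (build GRCr8) matched 73 of the 81 measured symbols. Both strands were searched, and overlapping matches counted, for 5 motifs written with N for any base. GCGCANGCG, a form of the NRF1 motif, was in 18 of 73 windows (24.7%), against 5.80% of all 33469 windows in the table. AAGATGGC (YY1) was in 14 (19.2%) against 3.17%, and CCGGAAGT (GABPA) in 7 (9.59%) against 3.81%. ACGTGC, a form of the hypoxia response element, was in 5 (6.85%) against 5.73%, and TTTCNNTTT, a loose form of the interferon response element, in 7 (9.59%) against 11.8%. None of the 5 was found in 35 of the 73 windows. A match is a string of letters and not a measured binding site. The 73 windows had a median of 56.3% G or C. The windows of all genes were not matched to them for this, and its part in the shares was not tested.

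The windows of 4 members are printed below with every match in capitals. Sdha (the flavoprotein of complex II) lies at chr1:30764303-30764602 on the plus strand and is shown for its 3 NRF1 matches. Uqcrc1 (a core protein of complex III) lies at chr8:118467973-118468272 on the plus strand and is shown because NRF1 and YY1 matches stand together. Ndufa4l2 at chr7:65241919-65242218 on the plus strand and Cox5a at chr8:66818034-66818333 on the plus strand are shown because their levels in endothelial barcodes, given further on, differed most from saline after poly(I:C), in opposite directions.
Sdha: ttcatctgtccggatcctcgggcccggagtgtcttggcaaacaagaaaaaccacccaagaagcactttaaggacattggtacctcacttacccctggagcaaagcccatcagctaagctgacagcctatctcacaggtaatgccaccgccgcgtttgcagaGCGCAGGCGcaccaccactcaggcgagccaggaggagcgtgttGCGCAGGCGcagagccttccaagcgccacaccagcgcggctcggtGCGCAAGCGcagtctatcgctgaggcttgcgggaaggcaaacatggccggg
Uqcrc1: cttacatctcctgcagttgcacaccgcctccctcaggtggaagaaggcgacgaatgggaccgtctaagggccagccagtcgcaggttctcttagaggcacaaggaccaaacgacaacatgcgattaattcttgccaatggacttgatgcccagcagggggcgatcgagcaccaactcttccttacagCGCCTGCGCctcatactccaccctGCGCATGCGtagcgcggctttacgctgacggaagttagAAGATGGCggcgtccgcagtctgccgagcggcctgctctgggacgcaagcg
Ndufa4l2: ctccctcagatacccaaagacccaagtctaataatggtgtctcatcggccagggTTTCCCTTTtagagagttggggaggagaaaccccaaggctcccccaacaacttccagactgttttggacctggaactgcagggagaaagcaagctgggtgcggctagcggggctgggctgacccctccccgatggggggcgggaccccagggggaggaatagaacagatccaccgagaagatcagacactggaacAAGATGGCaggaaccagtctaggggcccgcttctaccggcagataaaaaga
Cox5a: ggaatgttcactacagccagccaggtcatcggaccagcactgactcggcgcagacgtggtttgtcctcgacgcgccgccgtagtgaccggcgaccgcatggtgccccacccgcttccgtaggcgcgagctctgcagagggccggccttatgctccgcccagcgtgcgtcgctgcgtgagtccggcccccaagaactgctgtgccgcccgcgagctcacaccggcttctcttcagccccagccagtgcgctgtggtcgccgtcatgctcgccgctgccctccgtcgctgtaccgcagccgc
Ndufa4l2 held 1 YY1 match and 1 match to the loose interferon element, while Cox5a held none of the 5 motifs. Over all barcodes the median log2 ratio after poly(I:C) was -0.26 for 18 members with an NRF1 match and -0.21 for 54 without. After LPS it was -0.13 for 18 and -0.06 for 55, and the members with a match reached from -0.58 to 0.04. For GABPA the order was the other way, with medians of -0.19 for 7 members with a match and -0.24 for 65 without after poly(I:C), and 0.00 for 7 and -0.11 for 66 after LPS. For YY1 they were -0.28 for 14 and -0.20 for 58 after poly(I:C), and -0.16 for 14 and -0.05 for 59 after LPS.

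After poly(I:C), most nuclear-encoded chain genes were slightly lower than after saline. Their summed level over all barcodes was 1938 CPM [1924 to 1953] after saline, 1839 [1824 to 1855] after LPS and 1701 [1684 to 1719] after poly(I:C). The poly(I:C) sum was thus at 0.878-fold [0.866 to 0.889] and the LPS sum at 0.949-fold [0.938 to 0.960] of saline. The median log2 ratio of the members was -0.23 [-0.43 to -0.05] after poly(I:C), where the bracket joins the medians of the members' own interval bounds, beside -0.09 over all genes measured. Below 0 were 76 of 81 members, against 10073 of 15197 genes. At least 1.5-fold lower were 9 of 81 members, beside a background of 7.57% of all genes, and 0 were at least 1.5-fold higher, beside 3.47%. The 9 were Ndufs8, Ndufa1, Ndufa2, Uqcrfs1, Uqcr10, Cox4i2, Ndufa4l2, Cox7b2 and the second Ndufa10l1 feature. Intervals lay wholly below 1 for 48 of 81 members and for 4196 of 15197 genes, and above 1 for Uqcrc2 alone among the members. The members thus differed by small amounts, mostly in 1 direction, and the count past 1.5-fold was close to the background.

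After LPS the same genes lay nearer to saline. The median was -0.11 [-0.27 to 0.08] over 82 members, beside -0.03 over all genes, and 64 of 82 were below 0. At least 1.5-fold lower were 4 members, beside a background of 4.11%, and 0 were at least 1.5-fold higher, beside 4.95%. The 4 were Ndufa4l2, Cox4i2, Cox7b2 and the second Ndufa10l1 feature, the last with 29, 9 and 5 UMIs after saline, LPS and poly(I:C). Set directly against each other, without the saline library, LPS was above poly(I:C) by a median log2 ratio of 0.13 over 80 members, beside 0.05 over all genes. Here 0 members were at least 1.5-fold higher or lower, beside 6.27% and 2.73% of all genes. That count differed in other barcode sets. Over barcodes of 1000 to 2000 UMIs, 23 of 78 members were at least 1.5-fold higher after LPS (median 0.40, beside 0.21 over all genes). With barcodes thinned to 1000 UMIs, 5 of 78 were (median 0.22, beside 0.08). The share of all genes past 1.5-fold was not counted in these settings, so these counts have no background and are not read further.

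**Figure D1:**
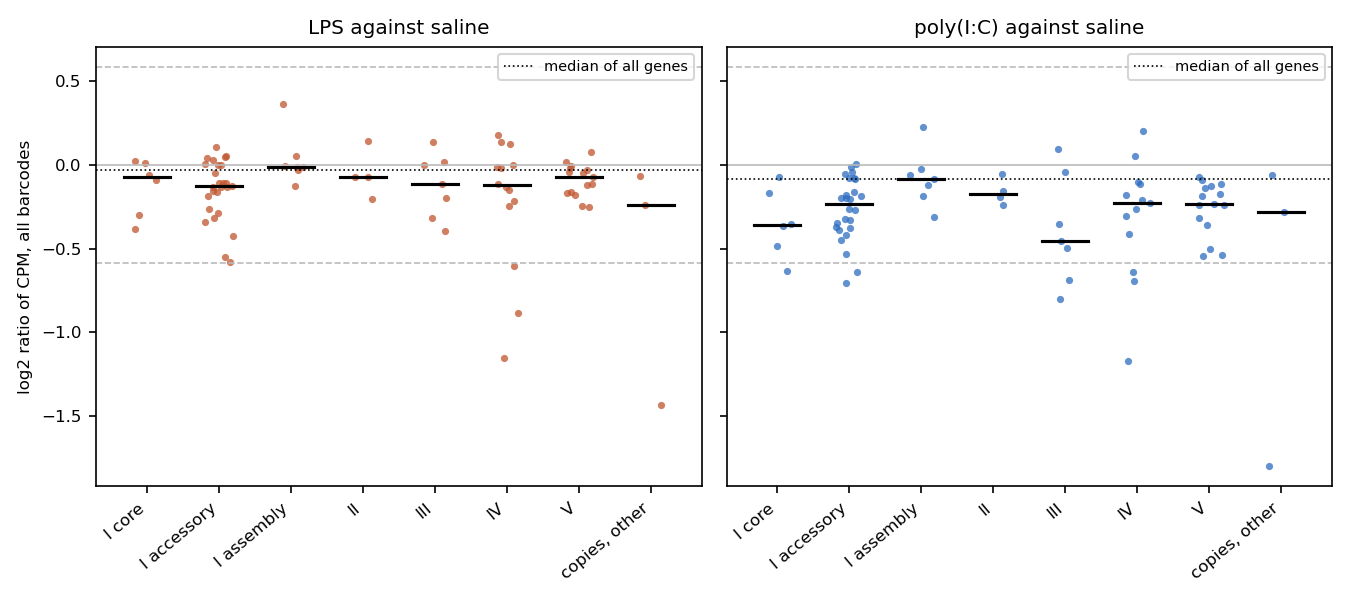
Log2 ratio of CPM over all barcodes for each measured member (points), grouped by complex, for LPS (left) and poly(I:C) (right) against the same saline library; black bars are group medians, the dotted line is the median of all genes and dashed lines mark 1.5-fold. After poly(I:C) 76 of 81 points lie below 0, and the lowest group medians are those of complex III (-0.46) and the complex I core (-0.36).

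Complex I, the NADH dehydrogenase, was measured through 6 of the 7 core subunits, 26 of the 27 accessory subunits and the 7 assembly factors present in the count tables. Ndufa10, Ndufb1, Ndufb9 and Ndufaf8 were listed as well but were not there under these names. After poly(I:C) the core subunits had a median log2 ratio of -0.36, the accessory subunits -0.23 and the assembly factors -0.08, close to the -0.09 of all genes. All 6 core subunits were below 0. Ndufv1, which holds the NADH site, was at 25.1, 19.3 and 17.9 CPM after saline, LPS and poly(I:C), at 0.766-fold [0.689 to 0.852] after LPS and 0.714-fold [0.632 to 0.806] after poly(I:C). It was thus lower after both treatments by more than counting error. Ndufs8, an iron-sulphur subunit near the quinone site, was at 6.61, 5.38 and 4.26 CPM, or 0.645-fold [0.500 to 0.825] after poly(I:C). Ndufs1, an iron-sulphur subunit of the NADH arm, stayed within counting error of saline at 34.2, 34.5 and 32.6 CPM. Ndufv2, another iron-sulphur subunit there, was at 44.3, 45.0 and 39.4 CPM, or 0.890-fold [0.817 to 0.968] after poly(I:C).

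Accessory subunits surround and stabilise the core. Ndufa2 had the lowest ratio after poly(I:C), with 6.05, 4.13 and 3.70 CPM and 0.612-fold [0.467 to 0.795]. Ndufa11 had the lowest after LPS, with 7.35, 4.91 and 5.39 CPM and 0.668-fold [0.542 to 0.821]. Ndufa7 was lower by a like amount after both, with 47.3, 35.2 and 35.3 CPM. Ndufs4, whose loss in mice gives a model of Leigh syndrome, went the other way after LPS, with 94.3, 101.6 and 91.5 CPM and 1.08-fold [1.02 to 1.13]. Ndufb3 was level at 25.1, 25.1 and 25.2 CPM. These subunits are built into 1 complex, yet their ratios after poly(I:C) ran from -0.71 (Ndufa2) to 0.01 (Ndufb3) on the log2 scale.

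The assembly factors help to build complex I but are not part of it. The one with most UMIs, Ndufaf2, was at 39.4, 41.0 and 38.7 CPM. Ndufaf4 was at 21.0, 19.2 and 19.8 CPM, Ndufaf1 at 2.17, 2.79 and 2.53, and Ndufaf3 at 5.94, 5.88 and 4.78. No interval of the 7 factors excluded 1 in either comparison with saline.

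Complex II has 4 subunits, all nuclear. Sdha was at 45.6, 43.4 and 41.0 CPM, and Sdhb, the iron-sulphur subunit, at 38.7, 33.6 and 33.8, or 0.869-fold [0.800 to 0.944] after LPS and 0.874-fold [0.798 to 0.957] after poly(I:C). The membrane anchors were Sdhc at 27.3, 25.9 and 23.1 CPM and Sdhd at 11.8, 13.1 and 11.4. All 4 lay below saline after poly(I:C), with a median of -0.17, and 3 of 4 after LPS, where Sdhd was above with an interval of 0.959 to 1.27.

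Complex III had the lowest group median after poly(I:C), -0.46 over 7 members, against -0.11 after LPS. Uqcrfs1, the Rieske iron-sulphur protein, was at 16.1, 12.9 and 9.98 CPM, or 0.804-fold [0.704 to 0.916] after LPS and 0.620-fold [0.527 to 0.727] after poly(I:C). Uqcr10, a small subunit, was at 7.99, 6.08 and 4.59 CPM and at 0.575-fold [0.452 to 0.725] after poly(I:C). Both were in order saline, LPS, poly(I:C), with intervals that excluded 1 in both comparisons. Uqcrc2, a core protein, did not share this, with 106, 107 and 114 CPM and 1.07-fold [1.01 to 1.12] after poly(I:C). Because it carried 3780 of the 7667 saline UMIs of complex III, the summed ratio of the complex was 0.932 [0.898 to 0.968], nearer to 1 than the median. Uqcrh, the hinge protein at the cytochrome c site, was at 40.5, 44.6 and 39.4 CPM.

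Complex IV, cytochrome c oxidase, holds the members that differ between tissues. Cox4i1, the common form of subunit 4, was at 42.9, 36.9 and 32.2 CPM, or 0.860-fold [0.795 to 0.930] after LPS and 0.751-fold [0.685 to 0.822] after poly(I:C). Cox4i2, its paralog known from lung and from cells that sense low oxygen, was at 2.73, 1.48 and 1.69 CPM from 97, 44 and 36 UMIs. Cox4i2 was at 0.542-fold [0.370 to 0.781] and 0.618-fold [0.409 to 0.915]. Ndufa4, a subunit of complex IV despite its name, was at 22.6, 22.3 and 18.9 CPM. Its paralog Ndufa4l2, a known target of hypoxia-inducible factor, was at 3.07, 1.38 and 1.36 CPM from 109, 41 and 29 UMIs, or 0.449-fold [0.306 to 0.649] and 0.443-fold [0.283 to 0.672].

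Both treatments thus had lower levels of these paralogs than saline, and the endothelial and mural marker sums were lower there as well. Most of the paralogs' UMIs lay in barcodes that held an endothelial or mural marker UMI. Without those barcodes, a setting chosen after seeing the data, Cox4i2 kept 19, 4 and 3 UMIs and Ndufa4l2 14, 5 and 6, with log2 ratios of -1.95 and -1.18 after LPS and -1.95 and -0.51 after poly(I:C). The part of vascular cell numbers in these values was not tested.

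Among the other paralogs of complex IV, Cox7b2, a paralog of Cox7b known from testis, was at 4.76, 3.12 and 3.05 CPM, or 0.657-fold [0.504 to 0.851] and 0.640-fold [0.473 to 0.857]. Cox7b itself was at 7.66, 8.40 and 8.81 CPM, with intervals that included 1. Cox5b, a zinc-binding subunit, was 1.13-fold higher [1.001 to 1.28] after LPS and at 0.864-fold [0.746 to 0.999] after poly(I:C), from 15.5, 17.5 and 13.4 CPM. Cox7c was at 43.7, 43.7 and 35.4 CPM, Cox6a1 at 16.2, 13.7 and 13.9, Cox6b1 at 9.82, 9.74 and 9.09, and Cox7a2l at 25.6, 23.1 and 22.6. Cox5a was level over all barcodes at 19.5, 18.0 and 20.2 CPM.

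Complex V had 15 measured members, all 15 below 0 after poly(I:C) (median -0.24) and 13 of 15 after LPS (median -0.07). Atp5mc1, Atp5mc2 and Atp5mc3 encode the same proton-carrying c subunit from separate genes. Atp5mc1 was at 19.9, 19.5 and 15.5 CPM, Atp5mc2 at 21.5, 20.8 and 15.2, and Atp5mc3 at 21.8, 18.3 and 14.9. Each was lower after poly(I:C), at 0.781-fold [0.683 to 0.891], 0.705-fold [0.617 to 0.804] and 0.684-fold [0.599 to 0.781]. After LPS only Atp5mc3 of the 3 had an interval that excluded 1, at 0.838-fold [0.750 to 0.937]. Atp5pb, of the stalk that holds the enzyme still, was at 51.1, 51.0 and 43.3 CPM. Atp5mk was at 20.7, 21.8 and 19.4 CPM and Atp5mg, a membrane subunit, at 27.0, 25.7 and 25.6. Atp5if1, the protein that stops the enzyme from running backwards, was at 24.4, 23.7 and 22.2 CPM, within counting error of saline in both comparisons.

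Other lists of mitochondrial genes differed in size but mostly not in direction after poly(I:C). The 13 chain genes encoded in the mitochondrial genome summed to 813, 753 and 481 CPM, which is 0.592-fold [0.579 to 0.606] after poly(I:C) and 0.926-fold [0.910 to 0.943] after LPS. All 13 were below 0 after poly(I:C), with a median of -0.70, and the lowest was Mt-cyb (-1.17), the mitochondrial subunit of complex III. The mitochondrial ribosome had a median of -0.26 over 70 genes, the citric acid cycle -0.18 over 17, glycolysis -0.17 over 21, and the cytosolic ribosome -0.39 over 67. Of the other chain and assembly genes 28 of 35 were below 0 (median -0.17), with Cyc1, the cytochrome of complex III, lowest at -0.71. Regulators of mitochondrial biogenesis had a median of -0.10, near that of all genes. After LPS the medians ran from -0.12 (cytosolic ribosome) to 0.00 (glycolysis). Mitochondrial RNA lies outside the nucleus. Its sum and that of the cytosolic ribosome moved with poly(I:C) in the same direction as the nuclear-encoded genes, and the part of either in their values was not tested.

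**Figure D2:**
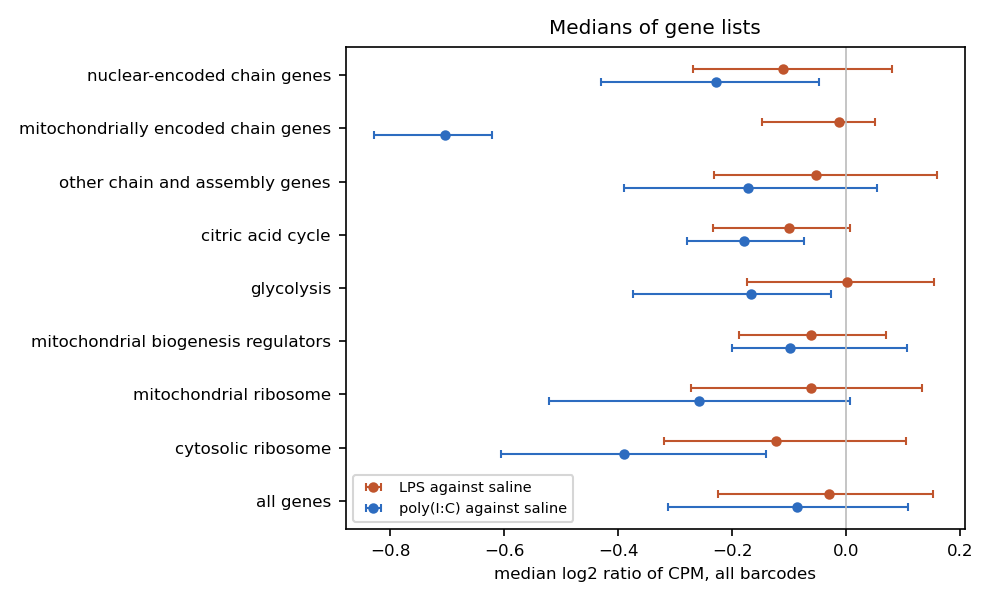
Median log2 ratio of CPM over all barcodes for the nuclear-encoded chain genes and for other gene lists, LPS and poly(I:C) against the same saline library; bars join the medians of the genes' lower and upper interval bounds. After poly(I:C) the mitochondrially encoded chain genes (-0.70) and the cytosolic ribosome (-0.39) lie below the nuclear-encoded chain genes (-0.23).

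The level of the chain genes differed with the depth of a barcode in each library. Barcodes with under 1000 UMIs had 2243 CPM after saline, 2464 after LPS and 1947 after poly(I:C). Those with 1000 to 2000 UMIs had 1916 [1894 to 1938], 2114 [2067 to 2162] and 1685 [1660 to 1710] CPM. Barcodes of 2000 to 4000 UMIs had 1803, 1822 and 1613 CPM, and those of 4000 or more had 1765, 1684 and 1558. The poly(I:C) library was lowest in each of the 4 bands, while LPS was above saline in the first and second, within counting error of it in the third and below it in the last. Mitochondrially encoded genes moved alike, with 1408, 3065 and 977 CPM in the first band and 577, 465 and 312 in the last, and their part was not tested. Over barcodes of 1000 to 2000 UMIs the median log2 ratio was 0.15 after LPS, beside 0.12 over all genes, and -0.25 after poly(I:C), beside -0.09. With barcodes of at least 1000 UMIs thinned to 1000, it was -0.01 after LPS, beside 0.004 over all genes, and -0.21 after poly(I:C), beside -0.08. Thinning left out 10150 of 25435 saline, 1901 of 11211 LPS and 4763 of 15001 poly(I:C) barcodes, so it changed the barcode set as well as the depth. The direction after LPS therefore differed between these barcode sets, whereas that after poly(I:C) did not. A depth band also selects cells: the median excitatory barcode held 1565 UMIs after saline and 3157 after LPS. The band of 1000 to 2000 UMIs kept 10540 of 25435 saline but 2358 of 11211 LPS barcodes. Depth and cell mix cannot be told apart here.

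**Figure D3:**
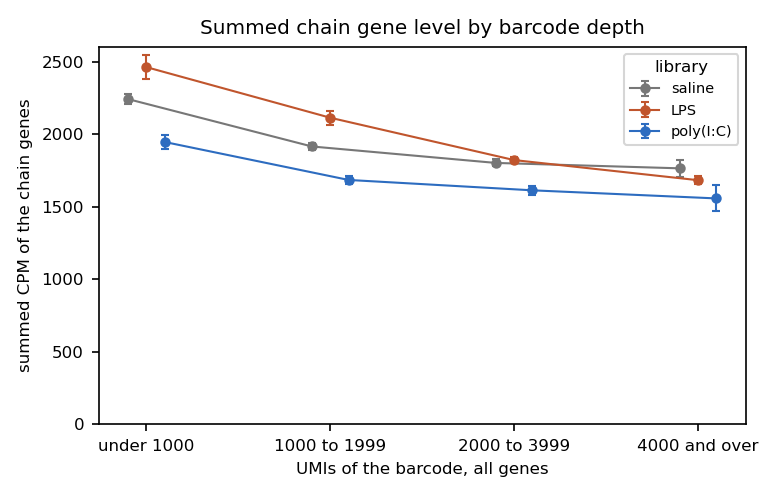
Summed CPM of the nuclear-encoded chain genes (y) in barcodes of 4 depth bands (x), for each library, with 95% counting intervals. The level falls with depth in each library, and poly(I:C) is the lowest of the 3 libraries in each band.

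Cell classes were gated on marker UMIs, which placed 29.6% of saline, 49.3% of LPS and 34.9% of poly(I:C) barcodes in 1 of 12 classes. Of 36 markers held out of the gate, 34 were in the tables and 29 of these were highest in their own class. In 5 classes the treated and the saline library each held at least 50 barcodes. Excitatory neurons numbered 3659, 2378 and 2572 barcodes, inhibitory neurons 1547, 1000 and 1036, striatal projection neurons 1271, 712 and 1047, oligodendrocytes 544, 905 and 272, and endothelial cells 284, 136 and 141. Ependymal barcodes also passed 50 after saline (62) and LPS (82), but no member had 30 UMIs there. In neurons depth was unequal: a median excitatory barcode held 1565 UMIs after saline, 3157 after LPS and 1641.5 after poly(I:C). It was closer in endothelial barcodes, at 757.5, 896 and 660 UMIs.

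Vascular barcodes had the highest summed levels. Mural barcodes, only 45, 17 and 36 in number, held 6914, 9886 and 6271 CPM. Among classes with at least 50 barcodes the endothelial class was highest in each library. After saline it held 6499 CPM [6205 to 6804], which is 3.02-fold [2.86 to 3.19] that of inhibitory neurons, the next of these classes. Inhibitory neurons held 2152 CPM and were 1.19-fold [1.10 to 1.27] above oligodendrocytes at 1815. Ependymal barcodes (1737), striatal projection neurons (1696) and excitatory neurons (1689) followed, and none of these neighbours differed beyond counting error. After LPS the endothelial class was at 2.41-fold [2.15 to 2.71] of astrocytes, the next of these classes there, and after poly(I:C) at 2.39-fold [2.19 to 2.61] of inhibitory neurons. In the endothelial class the mitochondrially encoded genes (13576 CPM after saline) and the cytosolic ribosome (10564) were also far above excitatory neurons (443 and 684), and their part in the higher level was not tested.

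**Figure D4:**
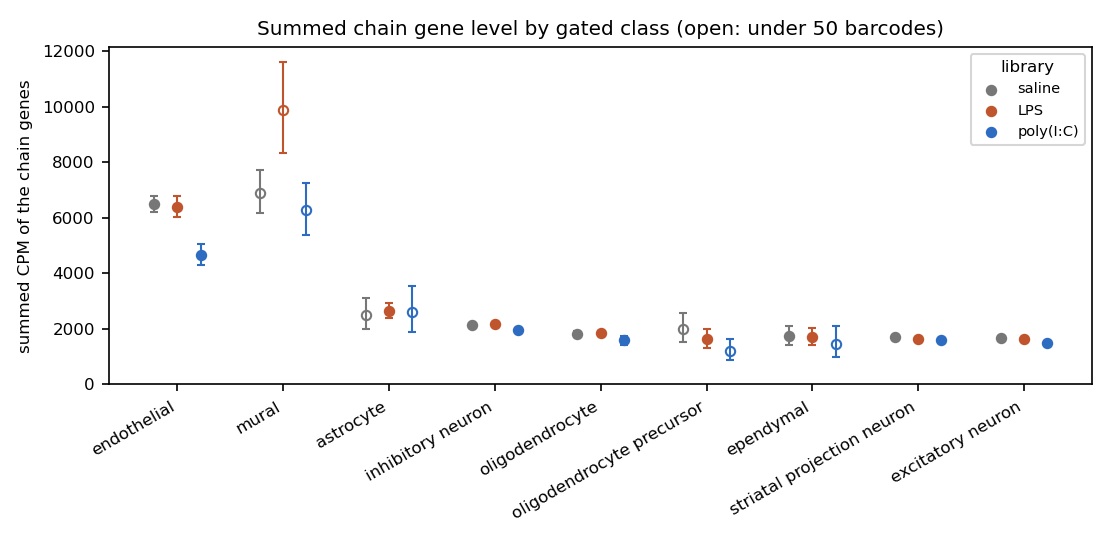
Summed CPM of the nuclear-encoded chain genes (y) in gated classes (x) for each library, with 95% counting intervals; open points rest on under 50 barcodes. Endothelial and mural barcodes stand above the other classes, and endothelial barcodes are lower after poly(I:C) (4667 CPM) than after saline (6499) or LPS (6404).

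Over the 5 classes compared, which leave out mural barcodes, 68 of the 82 members were highest in endothelial barcodes after saline, 62 of them with at least 10 UMIs there. Members differed widely in how much they varied between classes. Ndufs4 was nearly even, at 88.4 CPM in excitatory neurons, 101.7 in inhibitory neurons, 114 in oligodendrocytes and 95.7 in endothelial barcodes. Ndufa9, an accessory subunit, was likewise even, from 42.0 CPM in oligodendrocytes to 57.0 in inhibitory neurons. Uqcr10 was at 63.8 CPM in endothelial barcodes and at 2.63 in inhibitory neurons, and Cox4i1 at 340 CPM against 49.5 in inhibitory neurons. Ndufb8, an accessory subunit, was at 74.4 CPM in endothelial barcodes against 8.36 in excitatory neurons.

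Cox4i2 and Ndufa4l2 had 37 and 43 UMIs in gated barcodes after saline, most of them in the vascular classes. Cox4i2 had 25 UMIs in 284 endothelial barcodes after saline (88.6 CPM [57.3 to 131]) and 4 in 3659 excitatory neurons (0.620 CPM [0.169 to 1.59]). Ndufa4l2 had 29 UMIs (103 CPM [68.8 to 148]) and 5 (0.774 CPM [0.251 to 1.81]) in the same classes. In mural barcodes after saline Cox4i2 had 3 and Ndufa4l2 6 UMIs. Cox7b2 had 0 UMIs in endothelial barcodes, which allows up to 10.6 CPM by a limit of 3 counts, and 27 in excitatory neurons (4.18 CPM).

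In neurons the chain genes were slightly lower after poly(I:C) and close to saline after LPS. In excitatory neurons they summed to 1689, 1638 and 1498 CPM, or 0.887-fold [0.861 to 0.914] after poly(I:C) and 0.970-fold [0.946 to 0.995] after LPS. The median after poly(I:C) was -0.20 beside -0.08 over all genes, with 10 of 77 members at least 1.5-fold lower (background 7.31%) and 0 higher (background 2.32%). Complex III held 3 of these. Uqcrfs1 was at 14.9, 10.7 and 7.03 CPM and 0.473-fold [0.308 to 0.708], Uqcr10 at 0.469-fold [0.236 to 0.879] from 41 and 14 UMIs, and Uqcrb, another small subunit, at 0.611-fold [0.401 to 0.915]. Ndufaf3 had the lowest ratio, 0.446-fold [0.212 to 0.874], from 37 and 12 UMIs, and Cox7b the highest, 1.30-fold [0.802 to 2.11]. After LPS the median was -0.07 beside -0.05, with 1 of 78 higher (background 2.28%) and 2 lower (background 4.7%). The lowest was Cox7b2, at 0.495-fold [0.253 to 0.943] from 27 and 17 UMIs, and the highest Ndufb11, an accessory subunit, at 1.82-fold [0.988 to 3.50]. Uqcrfs1 was also lower after LPS here, at 0.721-fold [0.534 to 0.973].

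Inhibitory neurons summed to 2152, 2187 and 1950 CPM, or 0.906-fold [0.865 to 0.949] after poly(I:C) and 1.02-fold [0.979 to 1.06] after LPS. After poly(I:C) the median was -0.16 beside -0.04, with 7 of 67 lower (background 7.31%) and 1 higher (background 2.62%). Atp5mc2 had the lowest ratio there, 0.474-fold [0.234 to 0.898], and Atp5mc1 was at 0.563-fold [0.334 to 0.920]. Cox4i1 was at 49.5, 42.4 and 28.9 CPM, or 0.583-fold [0.399 to 0.837]. Ndufa6, an accessory subunit, had the highest ratio, 1.57-fold [0.752 to 3.27]. After LPS the median was -0.05 beside -0.02, with 2 of 72 lower (background 5.01%) and 1 higher (background 2.92%). Ndufa3 was lowest at 0.463-fold [0.222 to 0.925], from 25 and 14 UMIs, and Cox7b highest at 1.80-fold [0.988 to 3.41].

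Striatal projection neurons summed to 1696, 1621 and 1588 CPM, or 0.936-fold [0.887 to 0.988] after poly(I:C) and 0.956-fold [0.911 to 1.004] after LPS. The poly(I:C) median was -0.12 beside -0.07, with 3 of 59 lower (background 9.52%) and 1 higher (background 3.02%). Atp5mc1 was lowest at 0.487-fold [0.250 to 0.900] and Ndufaf4 highest at 1.55-fold [0.935 to 2.58]. Uqcrc2 was also higher there after poly(I:C), with 78.0, 94.7 and 116 CPM and 1.48-fold [1.18 to 1.86], while in excitatory neurons it was level at 106, 110 and 109 CPM. Whether the classes differ in this was not tested. After LPS the median was -0.08 beside -0.06, with 8 of 63 lower (background 7.4%) and 1 higher (background 3.13%), and Ndufa8, an accessory subunit, was lowest at 0.529-fold [0.302 to 0.905]. Cox4i1 was at 0.670-fold [0.458 to 0.975]. In all 3 neuron classes the mitochondrially encoded genes were lower after poly(I:C) by more than the nuclear-encoded ones, at 0.609-fold, 0.729-fold and 0.731-fold in the order above.

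In oligodendrocytes the nuclear-encoded and the mitochondrially encoded genes parted after LPS. The nuclear-encoded genes summed to 1815, 1842 and 1587 CPM, or 1.01-fold [0.936 to 1.10] after LPS and 0.875-fold [0.776 to 0.985] after poly(I:C). The mitochondrially encoded genes were at 1.61-fold [1.41 to 1.84] after LPS and 0.511-fold [0.391 to 0.661] after poly(I:C). The parting after LPS was not particular to this class. All barcodes under 1000 UMIs had 1408 (saline) and 3065 (LPS) mitochondrially encoded CPM, against 2243 and 2464 nuclear-encoded. Ependymal barcodes had 11594 and 16529 against 1737 and 1711. In endothelial barcodes the mitochondrially encoded sum was instead lower after LPS (13576 and 11827 CPM). After LPS 5 of 34 nuclear-encoded members were past 1.5-fold upward and 3 downward, the outermost being Atp5mc2 at 1.86-fold [0.824 to 4.71] and Atp5pf at 0.619-fold [0.314 to 1.23], beside a background of 12% each way, and no interval of theirs excluded 1. A UMI of Syt1, a neuronal synaptic vesicle gene, was in 51.1%, 31.5% and 43.8% of these barcodes, at medians of 698, 687 and 637.5 UMIs. Without them the nuclear-encoded sum was at 1.09-fold [0.961 to 1.25] after LPS and 0.768-fold [0.620 to 0.948] after poly(I:C). With a gate of 5 marker UMIs the poly(I:C) sum was at 0.957-fold [0.820 to 1.12].

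In endothelial barcodes the chain genes were lower after poly(I:C) than after saline or LPS. They summed to 6499, 6404 and 4667 CPM, which is 0.718-fold [0.654 to 0.788] after poly(I:C) and 0.985-fold [0.913 to 1.06] after LPS. Set directly against poly(I:C), LPS was at 1.37-fold [1.24 to 1.52]. After poly(I:C) the median was -0.33 beside -0.12 over all genes, with 12 of 34 members lower (background 27.1%) and 2 higher (background 17.1%). After LPS it was 0.06 beside -0.04, with 4 of 46 lower (background 20%) and 7 higher (background 17.6%). Few UMIs stand behind each gene here, the backgrounds are high, and the counts past 1.5-fold add little to the sums. Mitochondrially encoded genes were at 0.539-fold [0.502 to 0.579] after poly(I:C) and 0.871-fold [0.825 to 0.920] after LPS.

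Marker lists of other cells differed in level between the endothelial barcodes of the libraries. The 3 erythroid genes found summed to 7481, 5561 and 3838 CPM, with Slc4a1 at 0 throughout. The 10 neutrophil genes summed to 7.09, 1620 and 576 CPM, with 8, 3 and 4 of them at 0, among them Mmp9 and Ltf in each library. Their list includes Lcn2, which is also an acute phase gene. Whether its UMIs came from neutrophils was not tested. Leaving out barcodes with a neutrophil UMI, as below, may therefore also drop endothelial cells. The 10 mural genes found summed to 2303, 2230 and 1620 CPM, and Syt1 was in 44.4%, 31.6% and 43.3% of the barcodes. A list of 6 neuronal genes summed to 8459, 7056 and 9480 CPM. The endothelial gate markers themselves summed to 8597, 10081 and 7108 CPM, and the cytosolic ribosome to 10564, 12903 and 8098. These sums thus also differed after poly(I:C), and their part in the chain gene difference was not tested. Without barcodes holding an erythroid or neutrophil UMI, a setting chosen after seeing the data, 171, 60 and 93 were left, and the chain gene sum was at 0.722-fold [0.641 to 0.812] after poly(I:C) and 0.945-fold [0.839 to 1.06] after LPS. Without Syt1-positive barcodes it was at 0.773-fold [0.679 to 0.878] and 1.06-fold [0.960 to 1.16].

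Among single members in endothelial barcodes, Cox4i1 was at 340, 317 and 200 CPM, or 0.587-fold [0.365 to 0.913] after poly(I:C). With a gate of 5 marker UMIs Cox4i1 was at 0.738-fold [0.447 to 1.18], and without Syt1-positive barcodes at 0.621-fold [0.319 to 1.13], where the intervals include 1. Cox4i2 was level after LPS and had 25, 15 and 4 UMIs, or 0.347-fold [0.0877 to 1.004] after poly(I:C), but 0.763-fold [0.327 to 1.64] with a gate of 2 marker UMIs. Ndufa4l2 behaved alike, with 29, 18 and 3 UMIs and 103, 108 and 23.0 CPM, at 1.05-fold [0.548 to 1.95] after LPS and 0.224-fold [0.0437 to 0.723] after poly(I:C). Without barcodes holding an erythroid or neutrophil UMI, Ndufa4l2 was at 0.582-fold [0.143 to 1.78] after LPS, from 17 and 4 UMIs, so that its direction after LPS within this class was not settled at this depth. Ndufa7 was lower after both treatments, with 326, 197 and 115 CPM, at 0.605-fold [0.394 to 0.910] and 0.353-fold [0.190 to 0.613].

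Cox7a2l, which joins complexes III and IV into supercomplexes, was at 0.248-fold [0.0639 to 0.692] after poly(I:C) from 35 and 4 UMIs, and at 0.155-fold [0.0180 to 0.608] with a gate of 5. Cox7c, a small subunit of complex IV, was at 0.450-fold [0.212 to 0.871], Uqcrc2 at 0.382-fold [0.131 to 0.921] and Atp5f1d, a subunit of the rotating stalk, at 0.280-fold [0.0717 to 0.791]. Ndufab1, the mitochondrial acyl carrier protein, was at 2.41-fold [1.16 to 5.16] after LPS, from 14 and 20 UMIs. Without barcodes holding an erythroid or neutrophil UMI its interval after LPS ran from 0.569 to 10.8. Sdha had the lowest ratio after LPS, 0.540-fold [0.211 to 1.23], from 25 and 8 UMIs.

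Cox5a, which binds the matrix side of cytochrome c oxidase, was the one member of the 34 whose interval in endothelial barcodes lay above 1 after poly(I:C), while 24 of the 34 were below saline. In endothelial barcodes it was at 117 CPM [80.5 to 164] after saline, 179 [121 to 256] after LPS and 322 [232 to 436] after poly(I:C), from 33, 30 and 42 UMIs. It was at 1.53-fold [0.904 to 2.59] after LPS and 2.76-fold [1.71 to 4.49] after poly(I:C), so that only the poly(I:C) interval excluded 1. Without barcodes holding an erythroid or neutrophil UMI the poly(I:C) ratio was 2.96 [1.56 to 5.80], and without Syt1-positive barcodes it was 2.95 [1.54 to 5.74]. Whether reads of an overlapping gene are among these counts could not be checked, since no annotation of the files' build was used here. In mural barcodes Cox5a had 1, 4 and 8 UMIs. In excitatory neurons it was level at 12.9, 13.3 and 13.2 CPM. Whether the difference after poly(I:C) itself differs between classes was not tested.

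**Figure D5:**
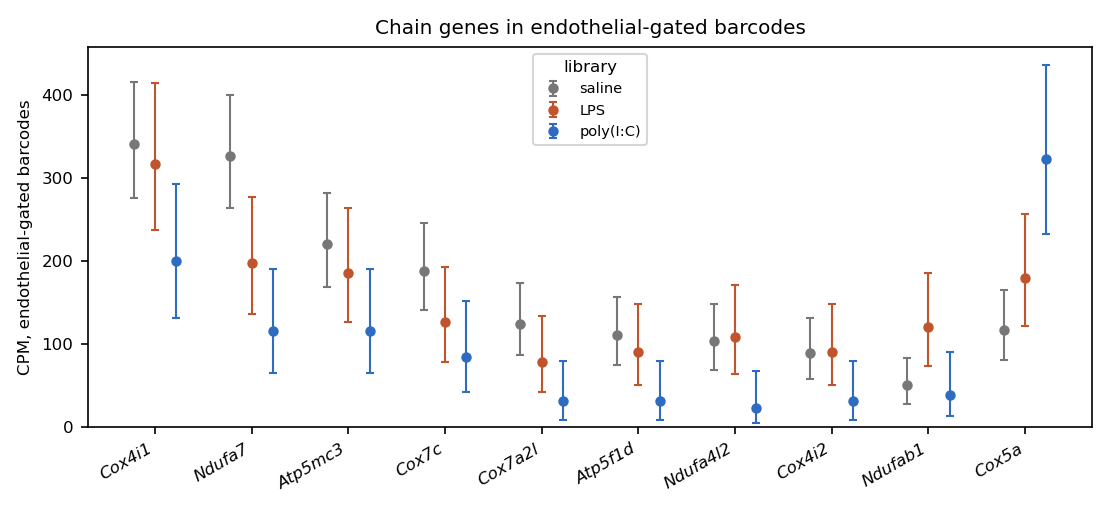
CPM of 10 chain genes in endothelial-gated barcodes of each library (284, 136 and 141 barcodes), with 95% counting intervals. Cox4i1, Ndufa7, Cox7a2l and Ndufa4l2 are lowest after poly(I:C), while Cox5a is highest there (322 CPM against 117 after saline).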

How the data were processed

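Nuclei were purified on an iodixanol gradient and libraries made with a 10x Genomics 5′ kit, per the labels' protocols. The authors deposited raw UMI counts per gene and barcode, made with Cell Ranger 7.0.0 on mRatBN7.2 per the submitters' processing notes; the annotation release is not given in the sources used here. Counts were used as deposited over all deposited barcodes, and no doublet caller was run. UMIs were summed per library or class and divided by all UMIs of the same barcodes (CPM). Ratios carry exact conditional (Clopper-Pearson) 95% intervals and levels exact Poisson intervals, both for counting error only. No p-value was computed, since each group is 1 library. Genes with at least 30 UMIs in the 2 libraries were measured, and called means at least 1.5-fold.

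A barcode joined the class whose list had most marker UMIs, if there were at least 3 from at least 2 genes. They also had to be at least 2 times those of the next list, which drops barcodes with mixed gate markers. Neutrophil genes, erythroid genes and Syt1 were not in the gate, so other mixed barcodes stayed in. Syt1, for example, was in 44.4% of saline endothelial barcodes. Classes named "endothelial" and so on rest on these markers alone.

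Of features with 1 symbol, that with most UMIs kept the bare symbol, and reads of near-identical copies cannot be told apart. Named were, in each complex, the member with most UMIs, the highest and lowest ratios among those with at least 100 UMIs, the paralogs and the inhibitor; in a class, the highest and lowest. Ndufa7, Uqcrfs1, Cox7b2, Cox5a over all barcodes, the second Ndufa10l1 feature, the members that vary least or most between classes, other class members whose intervals exclude 1 and those with few UMIs were chosen after their values were seen. Members and lists were chosen with earlier results of these data known. Some symbols of the complexes, such as Cox7a2, Cox8a, Ndufa10, Uqcr11 and Atp5f1c, were not in the count tables under these names. They are therefore in no sum or median here, and Cox8c was the only feature with a Cox8 name. Promoters came from RefSeq (GRCr8), matched by symbol, and no other coordinates were used. Python 3.11.15, numpy 2.4.6, scipy 1.17.1, pandas 2.3.3 and matplotlib 3.10.9 were used, and the ratio script was tested on simulated data.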

Additional observations from a re-analysis of the deposited data

How the results depend on the processing

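Alternatives changed the minimum of UMIs, the scaling, the barcodes used, the weighting, the members and the gate. The median after poly(I:C) over all barcodes stayed below 0 in each of them, from -0.25 to -0.14, and so did the class medians after poly(I:C) in 47 of 47 values. That of endothelial barcodes ran from -1.14 (members with at least 100 UMIs) to -0.20 (2 counts added). The -1.14 rests on Cox4i1 and Ndufa7 alone, the only members with that many UMIs there. The median after LPS ran from -0.11 to 0.15, the last over barcodes with 1000 to 2000 UMIs, where members at least 1.5-fold higher numbered 2 and lower 1, and its class medians were below 0 in 30 of 49 values. In that depth band LPS was above poly(I:C) by a median of 0.40, with 23 members at least 1.5-fold higher. Thinned to 1000 UMIs, 1 member was higher after LPS than after saline and 5 than after poly(I:C). With members of at least 10 UMIs, 2 were higher after LPS than after saline and 2 than after poly(I:C), and with barcodes weighted equally 3 were higher after LPS than after poly(I:C). At a 2-fold threshold 2 members were lower after LPS and 2 after poly(I:C). The share of all genes past the threshold was not counted in these alternatives, so these member counts stand without a background. Cox4i2 after LPS turned to a log2 ratio of 0.23 in the 1000 to 2000 UMI band; the cause was not tested. Of the named members 19 of 37 changed sign after LPS in that band and 12 of 37 when thinned, against 5 and 2 of 36 after poly(I:C). No paired analysis was possible because each group is 1 library. Intervals cover neither animals nor preparation, and in classes other than neurons few UMIs stand behind each member.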

Other observations

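Among members below the minimum of 30 UMIs were subunits of complexes I and IV. Ndufs6, an accessory subunit of complex I, had 0 UMIs in each library. Cox6a2, the form of subunit 6a known from heart and muscle, had 6, 6 and 3 UMIs after saline, LPS and poly(I:C), and Cox8c, known from testis, had 0. Just above the minimum, Cox7a1, the heart and muscle form of subunit 7a, had 17, 13 and 8 UMIs, of which 0 lay in endothelial barcodes. A second feature called Atp5mc1 had 10, 1 and 2 UMIs, and how reads were shared between it and the first was not tested.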
